A study of Mus musculus with 6 samples.

Results

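The genes described are 10 Wnt and beta-catenin target genes, Axin2, Nkd1, Notum, Lef1, Tcf7, Tcf7l1, Sp5, T, Cdx1 and Cdx2, picked by name as a readout of the GSK3 inhibitor in 2i medium. A row was found for 8 of them among 12626 genes, while T and Cdx2 were not analysed here. Messenger RNA came from WT J1 cells, a mouse embryonic stem (ES) cell line, kept in serum (D0) or moved to 2i+vitC for 6 or 13 days (D6, D13). The 6 samples are 2 biological replicates of each day. At D0 the medium held 15% fetal bovine serum and 1000 U/mL LIF, and cells grew on gelatin without feeders. At D6 and D13 the serum was gone and the medium held 1000 U/mL LIF, 3 µM of the GSK3 inhibitor CT-99021, 1 µM of the MEK inhibitor PD0325901 and 100 µg/mL vitamin C. The basal medium also changed, from Glasgow medium to a mixture of neurobasal medium and DMEM/F12 with serum-free supplements. All of these changed together. The part of the GSK3 inhibitor cannot be told apart from that of the MEK inhibitor, vitamin C, basal medium and supplements or serum loss. All samples come from this single line.

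In cells that receive no Wnt signal, GSK3 and the Axin and APC scaffolds mark beta-catenin for destruction. Wnt ligands, or a chemical inhibitor of GSK3, stop this, and beta-catenin then enters the nucleus and binds the TCF/LEF factors, turning repressed target genes into active ones. In ES cells this pathway supports self-renewal, in large part by lifting the repression that Tcf7l1 (also called Tcf3) exerts on naive pluripotency genes, while in the embryo it drives formation of the primitive streak and the posterior body. Axin2, Nkd1 and Notum are targets that dampen the signal, Lef1, Tcf7 and Tcf7l1 are DNA-binding partners of beta-catenin, and Sp5, T, Cdx1 and Cdx2 are transcription factors that act downstream of it.

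TCF/LEF factors bind a short DNA element whose core is CTTTGA, read on either strand (TCAAAG on the other). It was searched for in RefSeq promoter windows (GRCm38.p6) of 300 bases, from 250 bases before to 50 bases after a start site, in which it occurs in 16.0% of 32851 windows. The longer forms CTTTGAT and CTTTGAA, which contain it, occur in 3.73% and 5.14% of these windows. Of the 8 measured genes, 6 had at least 1 window, Notum and Cdx1 excepted. The core was present in the windows of Sp5 and Lef1, which are shown because these genes had among the largest differences between days. Capitals mark the core, and each stretch is written on the plus strand, which is also the strand of both genes.
Sp5, chr2:70474707-70474736: gacactttgtcaCTTTGAgcactgccttgg
Sp5, chr2:70474807-70474836: cggcaaggccccCTTTGAtcaggaaaatcc
Lef1, chr3:131156102-131156131: taaaatacatggTCAAAGgaaaataggtat
Lef1, chr3:131156162-131156191: cattgtctgttcTCAAAGtcaggtcttgca
The cores of Sp5 start 204 and 104 bases before its start site, in sequence that GENCODE assigns to no gene, and the nearer one continues as CTTTGAT. The cores of Lef1 are on the minus strand, within 180 bases before an internal start site at position 131156294 in an intron of Lef1, and the other 3 Lef1 windows held none. The windows of Axin2, Nkd1, Tcf7 and Tcf7l1 held no match either, which says only that these letters are not in those windows.

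The deposited values are log2 CPM, where CPM are counts scaled to the depth of each library, and a whole number of reads could be read off the gene values, with 73230745 to 83688345 reads on genes per sample. A level of 3 reads was at most 0.042 CPM, and the 8 measured genes had from 16 to 8280 reads per sample, all above that level. The cultures expressed all 10 of 10 ES cell markers, with a summed level of 4940 to 7170 CPM. From D0 to D6, 5 of them had a higher and 5 a lower mean. Past 4-fold, Nanog was higher and Utf1 lower in the limma fit. Every gene with a row had at least 84 reads in its highest sample, so a marker without a row may be low on all days. Only 3 of 14 primitive streak and mesoderm markers were measured (Eomes, Mesp2 and Kdr), and their sum stayed between 6.18 and 10.2 CPM. Of 10 feeder fibroblast markers 4 were measured (Col1a1, Col1a2, Thy1 and Pdgfrb), with a sum of 33.1 CPM at D0 replicate 1, 13.5 at D0 replicate 2 and 7.84 to 10.6 in the other samples. Trophoblast markers (8 of 13 measured) summed to 194 to 218 CPM at D0 and 130 to 156 CPM later, and endoderm markers (7 of 12) to 441 to 552 CPM over the 6 samples. These sums hide opposite changes of single markers from D0 to D6. The endoderm markers Dab2 and Lamb1 fell 20.0-fold and 12.5-fold and the trophoblast keratin genes Krt8 and Krt18 fell 6.46-fold and 17.2-fold, while the trophoblast factor gene Tead4 rose 4.54-fold (limma adjusted p = 0.00015, 4.2e-05, 0.00022, 6.1e-05 and 0.0025). Of the 7 endoderm markers, however, 5 had a higher mean at D6 than at D0. In the limma fit 0 of them rose, with 1 higher at an unadjusted p under 0.05. Of the 8 trophoblast markers, 2 had a higher mean and 6 a lower one. Most of the endoderm sum came from Sparc, at 173 to 435 CPM. The part of these cell types in the Wnt results was not tested. In bulk RNA, a lower share of cells that express a gene cannot be told apart from less of its RNA per cell.

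From D0 to D6, the conversion to 2i+vitC, the target genes went in different directions. Sp5 and Cdx1 rose most, Axin2 and Notum rose less, Lef1 fell, and Tcf7 and Tcf7l1 stayed within the spread between replicates. A gene is said to have risen or fallen at a Benjamini-Hochberg adjusted p under 0.05 in a limma fit of all genes and samples, and is called changed if the difference also exceeded 4-fold, the minimum used in the study. Of the 8 genes, 4 rose, against 13.8% of all genes, and 1 fell, against 10.4%. Past 4-fold, 2 were higher at D6 (5.91% of all genes) and 1 was lower (3.9%). The median log2 fold change was 0.51 over the 8 genes and -0.01 over all genes. Cdx1 is counted here and from D0 to D13, although its row depends on its level in 2i+vitC, as described below. The p-values rest on a spread between replicates that is pooled over the 3 days and moderated over all genes and families. A comparison of 2 days thus also carries the spread of the remaining day. Groups of 2 are too small for an exact test. Among the 12 other fits counted below, the filter of 10 reads in 2 samples removed nothing and repeated the main fit.

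**Figure D1:**
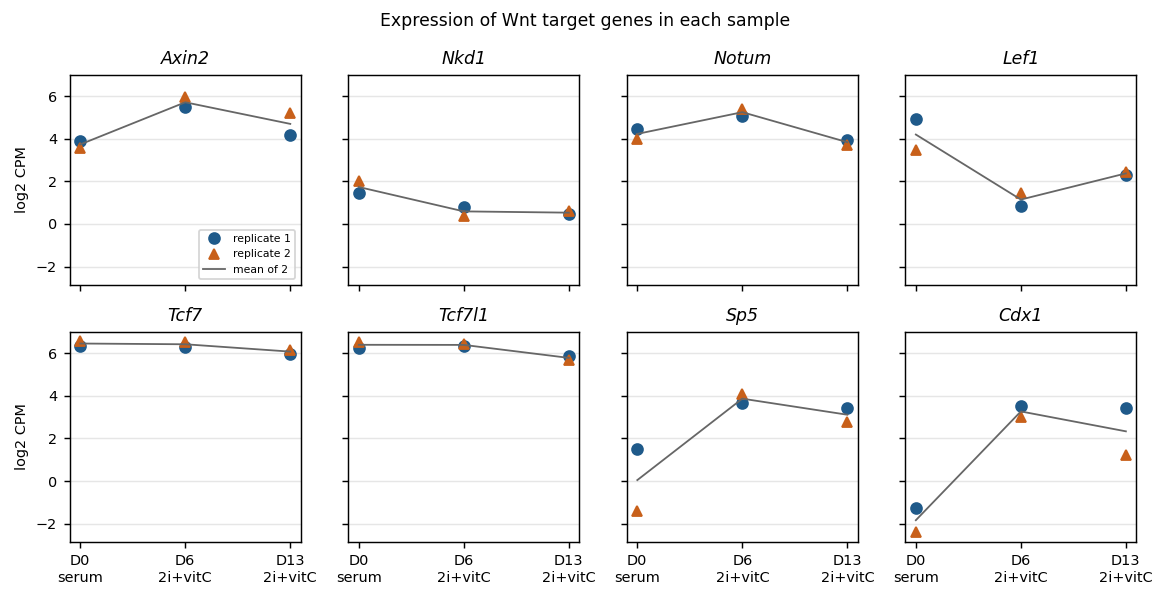
Expression in log2 CPM (y axis) of the 8 measured Wnt target genes at D0 in serum and D6 and D13 of 2i+vitC (x axis). Circles and triangles are replicates 1 and 2 and the line joins their means. Sp5 and Cdx1 lie lowest at D0, Axin2 and Notum peak at D6, Lef1 is lowest at D6, and the replicates are farthest apart for Sp5 at D0 and Cdx1 at D13.

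Axin2, a scaffold of the destruction complex (chr11:108920349-108950783, plus strand, GRCm38) and a widely used reporter of canonical Wnt signalling, was at 15.1 and 11.8 CPM at D0, 45.1 and 61.4 CPM at D6 and 18.4 and 36.7 CPM at D13 (replicates 1 and 2). Both D6 samples were above both D0 samples, and both D13 samples lay between the other days. At D6 Axin2 was up-regulated 3.94-fold over serum (log2 fold change 1.98 ± 0.35 SE, 95% interval 1.18 to 2.78, limma adjusted p = 0.0038), which is just under the 4-fold minimum. Without D0 replicate 1 or D6 replicate 1 the log2 fold change was 2.15 or 2.20, past that minimum. Without D0 replicate 2 or D6 replicate 2 it was 1.80 or 1.76, farther below the minimum. The lower level at D13 than at D6 did not pass the test, with a log2 fold change of -1.02 (95% interval -1.82 to -0.22, limma adjusted p = 0.125). Without D13 replicate 2, however, it was -1.51 and passed (limma adjusted p = 0.039), and without D13 replicate 1 it was -0.52. The difference between D13 and D0 was 0.96 (95% interval 0.16 to 1.76, limma adjusted p = 0.054), and without D13 replicate 1 it was 1.46 and passed (limma adjusted p = 0.015). It also passed with the values centred on the median gene (limma adjusted p = 0.049), whereas without D13 replicate 2 it was 0.46 (limma adjusted p = 0.240). The D13 replicates of Axin2 differed 1.99-fold from each other.

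Notum, a secreted enzyme that inactivates Wnt ligands by removing their lipid (chr11:120653788-120661175, minus strand), was at 22 and 16 CPM at D0, 34.1 and 42.6 CPM at D6 and 15.6 and 13.2 CPM at D13. The D6 samples were the highest pair, and the D13 samples were both just below those of D0. It rose 2.03-fold from D0 to D6 (log2 1.02 ± 0.27, limma adjusted p = 0.025) and fell again from D6 to D13, by 1.41 on the log2 scale (SE 0.27, limma adjusted p = 0.031). Between D0 and D13 the difference was -0.39 (95% interval -1.0 to 0.22, limma adjusted p = 0.268). The rise did not pass without D0 replicate 2 or either D6 replicate, nor the fall without either D6 replicate or D13 replicate 1, with adjusted p up to 0.248 and 0.309.

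Nkd1, a cytoplasmic antagonist that binds Dishevelled (chr8:88521354-88594884, plus strand), was low, with 2.73 and 4.06 CPM at D0, 1.73 and 1.31 CPM at D6 and 1.36 and 1.53 CPM at D13. Both D0 samples were above all later ones, and the samples of D6 and D13 overlapped. The D0 to D6 difference was -1.15 (95% interval -2.07 to -0.22, limma adjusted p = 0.075) and did not pass. From D0 to D13 Nkd1 fell 2.31-fold, with a log2 fold change of -1.21 (95% interval -2.13 to -0.29, limma adjusted p = 0.041). This passed in 6 of 12 other fits and not with only the 2 days compared or without D0 replicate 2 or any D6 or D13 replicate (adjusted p up to 0.128). Its paralog Nkd2 fell 7.0-fold from D0 to D6 and 5.40-fold from D0 to D13 (limma adjusted p = 0.00068 and 0.00094).

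Among the TCF/LEF factors, only Lef1 passed the test from D0 to D6. Lef1, which can recruit beta-catenin as an activator (chr3:131110471-131224356, plus strand), was at 30.6 and 11.1 CPM at D0, 1.81 and 2.71 CPM at D6 and 5.0 and 5.4 CPM at D13. All samples of each day were apart from those of the other days, and the D0 replicates differed 2.76-fold. Lef1 fell 8.31-fold from D0 to D6 (log2 fold change -3.05 ± 0.48; 95% interval -4.14 to -1.97, limma adjusted p = 0.002) and was called changed in each of 12 other fits, with values from -3.79 to -2.32. The higher level at D13 than at D6, a log2 fold change of 1.23 (95% interval 0.15 to 2.31, limma adjusted p = 0.157), did not pass. From D0 to D13 Lef1 fell 3.54-fold, by 1.82 on the log2 scale (limma adjusted p = 0.015), but this did not pass without D0 replicate 1 or either D13 replicate (adjusted p up to 0.084), and without D0 replicate 2 it exceeded 4-fold, at -2.56.

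Tcf7 (also called Tcf1; chr11:52252371-52283014, minus strand) was at 81.4 and 94.9 CPM at D0, 80.1 and 92.5 CPM at D6 and 63.5 and 71.8 CPM at D13. The D0 and D6 samples overlapped almost fully, with a log2 fold change of -0.03 (95% interval -0.51 to 0.45, limma adjusted p = 0.941). Neither the D6 to D13 difference of -0.35 (95% interval -0.83 to 0.13) nor the D0 to D13 difference of -0.38 (95% interval -0.86 to 0.10) passed (limma adjusted p = 0.345 and 0.180). Tcf7l1, the main repressor of the family in ES cells (chr6:72626378-72789254, minus strand), was at 76.7 and 93.1 CPM at D0, 82.2 and 86.1 CPM at D6 and 59.1 and 51.2 CPM at D13. Its D6 samples lay between the D0 replicates (log2 fold change -0.01; 95% interval -0.49 to 0.48, limma adjusted p = 0.989), and both D13 samples were below all others. From D0 to D13 Tcf7l1 fell 1.54-fold, with a log2 fold change of -0.62 (95% interval -1.10 to -0.13, limma adjusted p = 0.045), which passed in 6 of 12 other fits and not with no trend, with only the 2 days compared or without D0 replicate 2, either D6 replicate or D13 replicate 2 (adjusted p up to 0.151). From D6 to D13 the value was nearly the same, -0.61, but did not pass (limma adjusted p = 0.127).

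Sp5, a zinc finger factor that competes with Sp1 and is a direct beta-catenin target (chr2:70474923-70477729, plus strand), was at 2.87 and 0.372 CPM at D0, 12.6 and 17.0 CPM at D6 and 10.8 and 6.92 CPM at D13. Every 2i+vitC sample was above both serum samples, which themselves differed 7.72-fold, at 226 and 32 reads. Sp5 rose 14.1-fold from D0 to D6 (log2 fold change 3.82 ± 0.79; 95% interval 2.03 to 5.62, limma adjusted p = 0.0083), and the size of this rise rested on the serum sample used, at 5.30 without D0 replicate 1 and 2.35 without D0 replicate 2. From D0 to D13 it rose 8.36-fold (log2 fold change 3.06, limma adjusted p = 0.014), but the call was lost without D13 replicate 1 (limma adjusted p = 0.111) and without D0 replicate 2, where the log2 fold change of 1.59 was under 4-fold. Between D6 and D13 the difference was -0.76 (95% interval -2.55 to 1.04, limma adjusted p = 0.592).

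Lef1 and Sp5 were higher in D0 replicate 1 than in D0 replicate 2, as were Axin2, Notum and Cdx1, while Nkd1, Tcf7 and Tcf7l1 were lower. D0 replicate 1 also had the highest sum of feeder fibroblast markers, 33.1 against 13.5 CPM. Most of this gap came from Col1a1, at 18.5 and 3.65 CPM, while Pdgfrb was at 3.39 and 3.35 CPM. Without D0 replicate 1, the log2 fold change from D0 to D6 was -2.32 for Lef1 and 5.30 for Sp5. The 4 naive pluripotency genes reported as bound by Tcf7l1 were all lower in D0 replicate 1 than in D0 replicate 2. Esrrb was at 156 and 436 CPM, Tfcp2l1 at 85.1 and 188, Klf2 at 113 and 313 and Nanog at 189 and 216 CPM. The part of these differences between the serum libraries in the Wnt results was not tested.

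Cdx1, a caudal-type homeobox factor that patterns the posterior embryo (chr18:61018862-61036199, minus strand), had the largest difference of the 8 genes from D0 to D6 and from D0 to D13. It was at 0.412 and 0.189 CPM at D0, 11.4 and 8.16 CPM at D6 and 10.8 and 2.35 CPM at D13. The serum samples held only 32 and 16 reads, while all samples in 2i+vitC held at least 176. Every gene with a row had at least 84 reads in its highest sample. Cdx1 reached that level only in 2i+vitC, so its place among the measured genes depends on the samples in which it was high. Cdx1 rose 34.5-fold from D0 to D6 (log2 fold change 5.11 ± 0.70; 95% interval 3.52 to 6.70, limma adjusted p = 0.001) and 18.1-fold from D0 to D13 (log2 fold change 4.18; 95% interval 2.59 to 5.77, limma adjusted p = 0.0019), and both calls were made in each of 12 other fits. The D6 and D13 samples overlapped (log2 fold change -0.93; 95% interval -2.52 to 0.66, limma adjusted p = 0.446). The D13 replicates differed 4.61-fold, replicate 1 being the higher, whereas for Axin2 replicate 2 was the higher of the same pair of libraries. None of the 3 measured primitive streak and mesoderm markers passed the limma test from D0 to D6 or from D0 to D13. None had an unadjusted p under 0.05 in these comparisons. The listed markers without a row, T among them, were not tested.

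Between D6 and D13, within 2i+vitC, none of the 8 genes was called changed in the limma fit. None rose (1.43% of all genes did), and 1, Notum, fell (2.76% of all genes). Past 4-fold the shares of all genes were 0.388% higher and 0.697% lower. At an unadjusted p under 0.05, 1 of the 8 was higher at D13 (Lef1) and 3 were lower (Axin2, Notum and Tcf7l1). The median log2 fold change was -0.69 over the 8 genes, of which 7 had a lower mean at D13, and -0.01 over all genes.

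From D0 to D13, the full course, 2 genes rose (Sp5 and Cdx1), against 20.9% of all genes, and 3 fell (Nkd1, Lef1 and Tcf7l1), against 21.8%. Past 4-fold these were 2 higher (7.45% of all genes) and 0 lower (6.01%) with limma, 3 being lower at an unadjusted p under 0.05. The median log2 fold change was -0.39 over the 8 genes and -0.01 over all genes. The 3 comparisons share their samples and are not independent of each other.

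**Figure D2:**
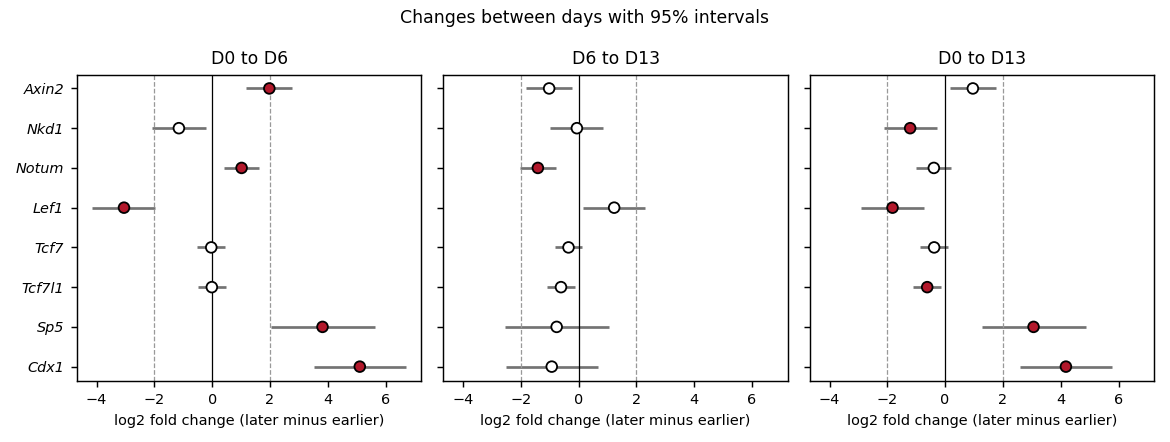
Log2 fold change (x axis, later minus earlier day) of each measured Wnt target gene (y axis) in the 3 comparisons of days, with 95% intervals from the limma fit as bars. Filled points have an adjusted p under 0.05 and dashed lines mark 4-fold. Sp5 and Cdx1 lie past 4-fold in both comparisons with D0, Lef1 in that from D0 to D6, and none does from D6 to D13.

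Per length of exon, as RPKM (CPM divided by the exon length of GENCODE in kilobases), the order of the genes also differed between media. At D0, Tcf7 had the highest mean level (33.5 RPKM), followed by Tcf7l1 (21.6), Notum (7.91), Axin2 (2.45), Lef1 (2.37), Sp5 (0.774), Nkd1 (0.746) and Cdx1 (0.172). The replicates of Axin2 and Lef1, of Lef1 and Sp5 and of Sp5 and Nkd1 overlapped, so the order of these neighbours is not resolved. At D6, Tcf7 (32.9), Tcf7l1 (21.4), Notum (15.9) and Axin2 (9.64) again led, followed by Sp5 (7.04) and Cdx1 (5.58), which overlapped each other and were both above Nkd1 (0.334) and Lef1 (0.257). The replicates of Nkd1 and Lef1 overlapped, so which of them was lowest at D6 is not resolved. At D13, Tcf7 (25.8) and Tcf7l1 (14.1) were above the rest, Notum (5.97), Axin2 (5.0), Sp5 (4.22) and Cdx1 (3.77) formed a chain of overlapping neighbours, and Lef1 (0.592) was above Nkd1 (0.317).

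**Figure D3:**
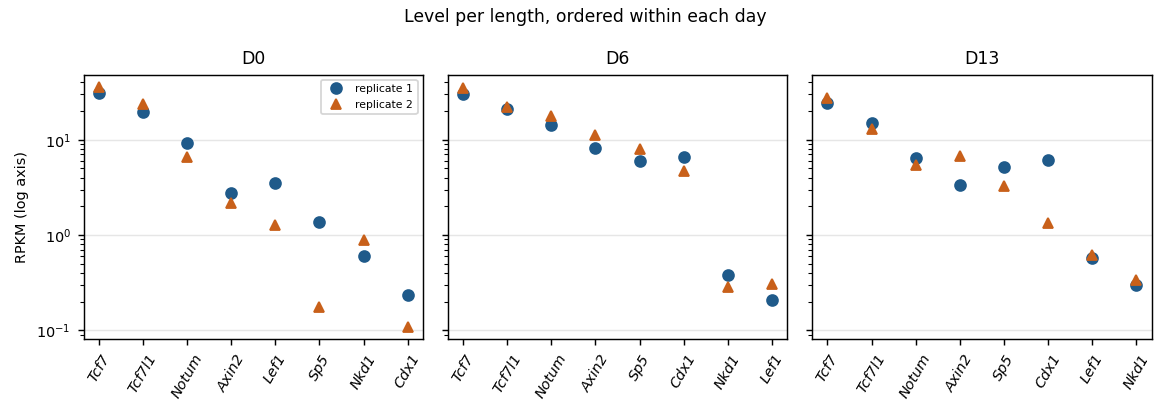
Level per exon length in RPKM (y axis, log scale) of the 8 measured genes, ordered by mean within each day (x axis), with circles and triangles for replicates 1 and 2. Tcf7 and Tcf7l1 lead on each day, Cdx1 is lowest at D0, Nkd1 and Lef1 overlap at the bottom at D6, and Nkd1 is lowest at D13.

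The rest of the pathway was described with lists of 128 other genes, of which 89 had a row. These 89, called pathway genes, include 4 naive pluripotency genes reported as bound by Tcf7l1, which are not parts of the pathway itself. Of these 4, Tfcp2l1 and Nanog are among the genes called higher from D0 to D6, and Tfcp2l1 among those from D0 to D13. From D0 to D6, 14 of the 89 rose (15.7%, against 13.8% of all genes) and 22 fell (24.7%, against 10.4%). Of these, 6 were called higher (6.74%, against 5.91%) and 13 lower (14.6%, against 3.9%), so the shares that rose were near those of all genes. The median log2 fold change was -0.19. From D6 to D13, 3 rose and 3 fell (3.37% each, against 1.43% and 2.76% of all genes), with 0 called higher and 3 lower in the limma fit (14 higher and 16 lower at an unadjusted p under 0.05). The 3 calls fell to 1 without D6 replicate 1 and to 0 without D6 replicate 2 or D13 replicate 1. From D0 to D13, 18 rose (20.2%, against 20.9% of all genes) and 25 fell (28.1%, against 21.8%), with 6 called higher (6.74%, against 7.45%) and 14 lower (15.7%, against 6.01%). The rises were again near the share of all genes. Beta-catenin itself, Ctnnb1, was at 824 and 770 CPM at D0, 856 and 898 CPM at D6 and 898 and 1030 CPM at D13. Its log2 fold change between D0 and D6, 0.14 (95% interval -0.37 to 0.65, limma adjusted p = 0.715), did not pass the test, although the samples of these days did not overlap.

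**Figure D4:**
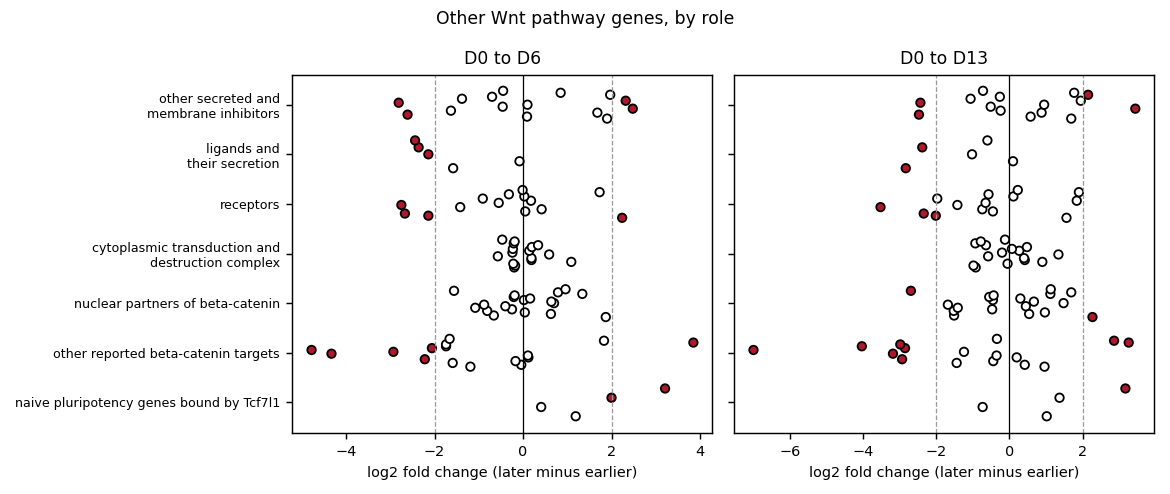
Log2 fold change (x axis, later minus earlier day) of the 89 other measured genes of the pathway lists, from D0 to D6 and from D0 to D13. Genes are grouped by role (y axis), and 4 of them are naive pluripotency genes reported as bound by Tcf7l1. Each point is a gene, filled ones are called changed and dashed lines mark 4-fold. Ligand genes and other reported targets hold mostly negative values, and no gene of the destruction complex list is filled.

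In the list of other secreted and membrane inhibitors (15 of 22 measured), 5 rose (33.3%) and 4 fell (26.7%) from D0 to D6. Of all genes 13.8% rose and 10.4% fell. The list also holds the Dishevelled-binding genes Nkd2, Dact1, Dact2 and Dact3, of which Nkd2, Dact1 and Dact3 fell and Dact2 rose. Among its other genes, Dkk3, Sfrp1, Apcdd1 and Tpbg rose and Sfrp2 fell. The secreted Dkk family protein Dkk3 rose 5.60-fold and Sfrp1, which binds Wnt ligands, rose 4.98-fold, while the Dishevelled-binding genes Nkd2 and Dact1 fell 7.0-fold and 6.11-fold (limma adjusted p = 0.00034, 0.00016, 0.00068 and 0.0018). At D13 Dkk3 was 10.9-fold above D0, and Tpbg, a membrane inhibitor of Wnt receptors, 4.42-fold above it. Genes of ligands and their secretion (5 of 25 measured) had 0 higher, in the limma fit and at an unadjusted p under 0.05, and 4 lower at D6 (80.0%, against 10.4% of all genes). The ligand genes Wnt9a, Wnt7b and Wnt4 fell 5.41-fold, 5.12-fold and 4.41-fold from D0 to D6. All were low, at 8.38 CPM or less in each sample. At D13 Wnt7b was still 5.22-fold below D0 (limma adjusted p = 0.0032). The D0 to D13 log2 fold changes of Wnt9a, -0.6, and Wnt4, -1.02, did not pass (limma adjusted p = 0.343 and 0.096). Porcn, the enzyme that attaches the lipid to Wnt ligands, was 7.09-fold lower at D13 than at D0 (limma adjusted p = 0.0018).

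Of the receptors (14 of 18 measured), 2 rose (14.3%, against 13.8% of all genes) and 5 fell (35.7%, against 10.4%) from D0 to D6. The Frizzled receptor genes Fzd7, Fzd3 and Fzd2 fell 6.73-fold, 6.38-fold and 4.39-fold, and Fzd10 rose 4.73-fold (limma adjusted p = 7.1e-05, 0.00051, 0.00082 and 0.0027). Fzd7 rose again from D6 to D13 (log2 fold change 1.33, limma adjusted p = 0.023) and at D13 was 2.68-fold below D0. Fzd6 fell 4.27-fold from D6 to D13 and 11.4-fold over the full course. In the list of cytoplasmic transduction and the destruction complex (16 of 17 measured), 1 gene rose (6.25%) and 0 fell by D6 in the limma fit, below the shares of all genes, with 1 of each direction at an unadjusted p under 0.05. The gene that rose was Btrc, which recognizes phosphorylated beta-catenin for destruction (2.14-fold, limma adjusted p = 0.0073), named after its value was seen. The nuclear partners (19 of 19 measured) had 2 higher and 2 lower at D6 (10.5% each, near the 13.8% and 10.4% of all genes), none past 4-fold (4 higher and 3 lower at an unadjusted p under 0.05). By D13 the Groucho family genes Aes and Tle4 were 4.84-fold higher and 6.44-fold lower than at D0 (limma adjusted p = 0.00056 and 0.00016). The D13 replicates of Aes differed 1.93-fold.

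Other reported beta-catenin targets (16 of 26 measured) had a median log2 difference of -1.62 by D6, with 2 higher (12.5%, against 13.8% of all genes) and 7 lower (43.8%, against 10.4%). Myc, a growth regulator that also responds to serum and ERK signalling, was at 93.7 and 43.6 CPM at D0, 1.58 and 3.43 CPM at D6 and 0.553 and 0.460 CPM at D13. It fell 27.5-fold from D0 to D6, a further 4.62-fold by D13 and 127-fold over the full course (limma adjusted p = 0.00024, 0.045 and 2.9e-05). The early response and BMP-linked genes Jun and Id2 fell 7.62-fold and 20.1-fold, and the Eph receptor gene Ephb2 fell 4.65-fold. The D0 replicates of Id2 were far apart, at 108 and 23.6 CPM. Jun was at 20.3 and 24.9 CPM at D0, 3.39 and 2.57 CPM at D6 and 11.2 and 8.13 CPM at D13. From D0 to D13 it was not called changed. Tbx3, a T-box factor of the naive state, rose, at 11.4 and 18.1 CPM at D0, 196 and 218 CPM at D6 and 136 and 138 CPM at D13, 14.4-fold from D0 to D6 (limma adjusted p = 3.4e-05). Over the full course the planar polarity gene Prickle1 fell 7.87-fold, and the receptor gene Tnfrsf19 rose 7.25-fold. This list holds genes first reported as targets in other tissues.

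The 4 naive pluripotency genes reported as bound by Tcf7l1 all had a higher mean at D6 than at D0, and 2 rose. Tfcp2l1 was at 85.1 and 188 CPM at D0, 1100 and 1250 CPM at D6 and 888 and 1460 CPM at D13, a 9.26-fold rise from D0 to D6 (limma adjusted p = 0.00051). Nanog was at 189 and 216 CPM at D0, 812 and 811 CPM at D6 and 571 and 477 CPM at D13, a 4.01-fold rise (limma adjusted p = 0.00029). The other two, named to complete the list, did not pass, Esrrb with a log2 fold change of 1.19 (95% interval 0.24 to 2.13) and Klf2 with 0.41 (95% interval -0.51 to 1.33), with limma adjusted p = 0.071 and 0.523. Tcf7l1 itself, as given above, differed by -0.01 on the log2 scale in the same comparison.

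The 5 genes whose course over the 6 samples lay closest to that of Axin2, among 11241 named genes, were Ttll6, Flrt2, Rnf144b, Catip and Mex3b. Closeness was the root mean square difference in log2 CPM after each gene was centred on its own mean, which was 0.18, 0.19, 0.21, 0.23 and 0.27 for these genes. Pearson's r with Axin2 was 0.96 to 0.98 over the 6 samples, given as a description since the genes were selected for it and share the same libraries. Flrt2, a membrane protein, had log2 CPM values of 1.35 and 1.60 in serum, 3.41 and 3.67 on D6 and then 1.98 and 2.91 on D13. Like Axin2, Flrt2 was higher in replicate 2 than in replicate 1 at D13.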

How the data were processed

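For genes, the authors mapped stranded paired-end reads (TruSeq Stranded mRNA) onto mm10 with TopHat 2.0.6 and RefSeq annotation and counted them with HTSeq 0.6.1. They joined these with transposon counts, applied TMM and deposited voom log2 CPM. The strand setting of the counting is not given in the sources used here. Antisense genes share exon bases with Axin2, Notum, Lef1 and Tcf7l1 in GENCODE vM21. Names in the deposited files lack every capital G, so the GSK3 genes were not looked up. No listed name could arise from such a loss.

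Differences were tested on the log2 values with limma 3.58.1 (R 4.3.3), with a mean for each day, a mean-variance trend, all 6 samples and 12928 genes and transposon families, and Benjamini-Hochberg adjustment. Reads were recovered as whole numbers to within 0.05. Tables used Python 3.11.15, numpy 2.4.6 and pandas 2.3.3, and the fit was tested on simulated data. Named are each measured target gene, Ctnnb1, up to 4 called genes per pathway list, comparison and direction, and the 5 genes nearest to Axin2. Btrc, Esrrb, Klf2 and single cell type markers were named outside this rule, after their values were seen. One gene that this rule names is not reported here. The genes and lists were chosen with earlier results of these data known. Gene positions were taken from GENCODE vM21 (GRCm38, called mm10 by the authors). Alternatives were median centring, a filter of 10 reads in 2 samples, voom weights, no trend, fits of only 2 days, a replicate block, other thresholds and each sample left out. The filter removed nothing, so its fit repeated the main one and adds no support. Counts over 12 other fits and over 288 log2 fold changes include it.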

Additional observations from a re-analysis of the deposited data

How the results depend on the processing

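The numbers of target genes and pathway genes called changed were within 1.5 times the reported ones under median centring, voom precision weights, no trend, fits of only the 2 days compared and the filter of 10 reads in 2 samples, which removed none of the 12928 genes and families. With a 2-fold minimum, called target genes numbered 5 from D0 to D6 (3 at 4-fold), 1 from D6 to D13 (0) and 4 from D0 to D13 (2), and pathway genes 34 (19), 6 (3) and 38 (20). With no fold minimum these were 5, 1 and 5 target genes and 36, 6 and 43 pathway genes. At an adjusted p under 0.01, 1 target gene was called from D0 to D13 and 0 pathway genes from D6 to D13. Leaving out 1 sample gave 3 to 4, 0 to 0 and 1 to 2 target genes in the 3 comparisons, and 18 to 21, 0 to 4 and 18 to 24 pathway genes. Pathway genes from D6 to D13 numbered 1 without D6 replicate 1 and 0 without D6 replicate 2 or D13 replicate 1, and target genes from D0 to D13 numbered 1 without D13 replicate 1. Of 288 log2 fold changes of target genes, 276 kept their direction and call, 3 gained a call, 2 lost one and 7 changed sign, none of which was called. Without 1 sample, the log2 fold change of Nkd1 from D6 to D13 ranged from -0.26 to 0.14, that of Cdx1 from -2.04 to 0.17, and from D0 to D6 that of Tcf7 from -0.14 to 0.08 and that of Tcf7l1 from -0.15 to 0.13. The sign changed for Nkd1 from D6 to D13 without D6 replicate 1 (0.14) or D13 replicate 1 (0.02), for Cdx1 from D6 to D13 without D13 replicate 2 (0.17), and from D0 to D6 without D0 replicate 2 or D6 replicate 1 for Tcf7 (0.08 and 0.07) and Tcf7l1 (0.13 and 0.03). Replicate numbers could not be taken to pair the samples. The correlation over genes of the difference between replicates 1 and 2 was -0.13 for D0 and D6, 0.137 for D0 and D13 and 0.329 for D6 and D13. With a replicate block, 3, 0 and 2 target genes and 19, 4 and 20 pathway genes were called changed, and Axin2 from D0 to D13 passed the test (limma adjusted p = 0.024). The cause of these differences was not tested, beyond the lower threshold or smaller number of samples that defines each alternative.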
